A study of Homo sapiens with 12 samples.

Results

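A set of 9 circadian clock genes was followed in MDA-MB-453 cells after androgen: the period genes PER1, PER2 and PER3, the cryptochromes CRY1 and CRY2, the activator gene CLOCK, the REV-ERB genes NR1D1 and NR1D2, and the output factor gene DBP. They were taken by symbol from the deposited table, and all 9 were found among 60670 genes and passed the filter on low counts that left 16355 genes for testing. The DHT group was 6 libraries of cells given 10 nM dihydrotestosterone, a natural androgen, for 6 h. The vehicle group was 6 libraries of cells given 0.001% ethanol for the same time. Both groups had been grown for 72 h in high-glucose medium with fetal bovine serum, which itself carries hormones, and the series title concerns AP-2β, a transcription factor of mammary hormone-sensing cells. MDA-MB-453 is an established human breast cancer line, the replicates were described as independent and taken at successive passages, and p-values therefore measure the spread between cultures of 1 line. The design text names poly-A RNA while the protocol names a total RNA kit, and the 2 were not reconciled. The labels name no step that sets the cells to a common clock phase, and there was 1 time point, so rhythm and phase were not measured.

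The clock is a transcriptional loop. CLOCK and its partner BMAL1 bind E-box sequences and switch on the PER and CRY genes, whose proteins return to the nucleus and hold CLOCK and BMAL1 back. In a further loop the REV-ERB receptors repress BMAL1 and the ROR receptors activate it, while DBP drives genes with D-box sequences. PER1 is also known as a direct target of steroid hormone receptors, and the comparison asks how 6 h of androgen changed RNA of the loop's genes.

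The sequences before the start sites of the period genes and DBP are shown because PER1 changed with DHT and its relatives did not pass, and because DBP set both replicate 2 libraries apart. Each is the RefSeq window from 250 bases before to 50 bases after a start site (GRCh38.p14), read in the direction of the gene, with matches to any motif searched in capitals.
PER1 (chr17:8152355-8152654, minus strand): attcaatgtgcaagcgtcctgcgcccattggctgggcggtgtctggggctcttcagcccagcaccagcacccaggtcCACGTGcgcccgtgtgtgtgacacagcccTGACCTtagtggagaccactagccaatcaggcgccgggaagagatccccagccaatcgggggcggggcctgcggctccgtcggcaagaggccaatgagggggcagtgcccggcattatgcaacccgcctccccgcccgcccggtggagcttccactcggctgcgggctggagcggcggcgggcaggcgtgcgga
PER2 (chr2:238288561-238288860, minus strand): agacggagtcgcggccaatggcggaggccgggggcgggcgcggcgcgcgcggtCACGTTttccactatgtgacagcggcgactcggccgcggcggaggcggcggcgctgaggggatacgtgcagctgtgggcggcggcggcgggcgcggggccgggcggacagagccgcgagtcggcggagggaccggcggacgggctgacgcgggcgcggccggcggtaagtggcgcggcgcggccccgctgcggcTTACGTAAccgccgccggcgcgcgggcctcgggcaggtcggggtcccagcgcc
PER3 (chr1:7784041-7784340, plus strand): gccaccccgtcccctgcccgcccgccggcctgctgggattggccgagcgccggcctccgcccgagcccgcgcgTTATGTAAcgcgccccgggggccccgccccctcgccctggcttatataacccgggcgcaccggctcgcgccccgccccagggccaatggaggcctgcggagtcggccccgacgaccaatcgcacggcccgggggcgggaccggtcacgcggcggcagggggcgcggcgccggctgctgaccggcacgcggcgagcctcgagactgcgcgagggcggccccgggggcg
DBP (chr19:48637330-48637629, minus strand): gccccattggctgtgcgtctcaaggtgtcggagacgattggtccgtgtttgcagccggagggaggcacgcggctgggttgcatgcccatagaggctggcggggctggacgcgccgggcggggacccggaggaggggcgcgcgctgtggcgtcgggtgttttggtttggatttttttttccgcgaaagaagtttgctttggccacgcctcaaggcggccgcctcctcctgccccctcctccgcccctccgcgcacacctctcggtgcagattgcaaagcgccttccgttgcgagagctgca
The PER1 and PER2 windows lie inside the annotated spans of these genes, which begin on the minus strand at 8156506 and 238290102. Sequence before those outer ends was not searched. The PER1 window held the E-box CACGTG at position -173 from the start, and the hexamer AGGTCA, bound by REV-ERB and ROR receptors, in reverse at -144. In the PER2 window stood the E-box variant CACGTT at -197 and the D-box TTACGTAA at -3. The PER3 window shown held the D-box TTATGTAA at -177, and the DBP window held no match. A further PER3 start site had a window, not shown, that held no match. Both strands were searched over 13 windows of the 9 genes, and no motifs overlapped in the windows shown. CACGTG was found in 2 of the 13 windows (7.26% of all 35116 windows held it), CACGTT in 5 (5.34%) and TTANGTAA in 3 (2.18%). AGGTCA was found in 3 of the 13 windows, which belong to 2 genes (13.8% of all windows). The hexamer AGAACA, part of the androgen and glucocorticoid receptor element, was in 0 of the 13 windows and in 14.8% of all windows, and its inverted repeat with a 3-base gap was in 0 of the 13 and in 0.00285% of all. TGACGTCA, the cyclic AMP element, was in 0 of the 13 and in 1.85% of all.

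Total counts ran from 9486951 to 25678781 in DHT libraries and from 4346465 to 16963880 in vehicle libraries, so 1 count was worth 0.0456 to 0.214 CPM (counts scaled to library size). FKBP5, a chaperone gene induced by androgen, had a lowest, median and highest value of 244, 362 and 424 CPM in DHT libraries, against 56.9, 82.5 and 102 CPM in vehicle libraries. Luminal epithelial markers were abundant, with sums over 8 genes of 2952 to 6297 CPM in DHT and 3922 to 8548 CPM in vehicle libraries, while ESR1 and PGR together stayed at or under 0.399 CPM in DHT and 0.876 CPM in vehicle libraries. All 6 fibroblast markers had counts, and their sum was 59.9 to 75.8 CPM in DHT libraries and 76.4 to 110 CPM in vehicle libraries. Most of it was COL1A1, with means of 62.1 CPM in DHT and 79.9 CPM in vehicle libraries. The next, COL3A1, averaged 1.91 and 4.52 CPM. The part of the fibroblast markers in the results below was not tested. Leukocyte sums reached at most 0.472 CPM in DHT and 0.854 CPM in vehicle libraries, with CD3E and MS4A1 at 0 counts, and endothelial sums reached 0.641 and 1.55 CPM. The main axis of variation between libraries (51.1% of the variance in a principal component analysis) set both replicate 2 libraries apart from the other 10. On the next axis (15.7% of the variance) vehicle replicate 5 stood apart, at 49.96 against -23.4 to 21.2 for the other libraries.

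PER1, whose protein is a repressor of CLOCK and BMAL1, was the only clock gene called raised with all libraries and group as the only term in the fit. CRY2, described below, also passed in some other settings. The PER1 level was 18.9, 22.9 and 25.7 CPM (lowest, median, highest) in DHT libraries, against 9.83, 12.04 and 17.6 CPM in vehicle libraries. Every DHT library lay above every vehicle library. The highest vehicle library was replicate 2, and the other 5 vehicle libraries stayed at or below 13.1 CPM. PER1 (ENSG00000179094, chromosome 17, 8140472 to 8156506 on GRCh38, minus strand) averaged 22.7 ± 2.41 CPM in DHT and 12.6 ± 2.72 CPM in vehicle libraries (SD, n = 6 each). The log2 fold change was 0.84 with a standard error (SE) of 0.14, a 1.79-fold difference with a 95% interval of 1.44 to 2.22, and an adjusted p of 0.00499 in edgeR's quasi-likelihood test with Benjamini-Hochberg adjustment over all genes. Of the 9 clock genes 1 was raised, beside 1.96% of all genes tested (2.84% were called in either direction). In 1 of the 9 the DHT libraries lay wholly above the vehicle libraries, and in 0 wholly below, beside 2.28% and 0.991% of all genes (3.27% in either direction). In edgeR 0 clock genes were lowered, beside 0.88% of all genes. Likewise 0 were lower by unadjusted p (under 0.05), 0 by DESeq2 and 0 by limma-voom, beside 5.41% of all genes lower by unadjusted p. By the same threshold 2 were higher, PER1 and CRY2, beside 6.59% of all genes. The rise was present in each of 24 other settings, with log2 fold changes of 0.78 to 0.96 and adjusted p between 1.85e-06 and 0.0181. The authors' deposited table gives PER1 a log2 fold change of 0.88 and an adjusted p of 0.000456. In bulk RNA, more cells with a transcript and more of it per cell cannot be told apart.

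**Figure D1:**
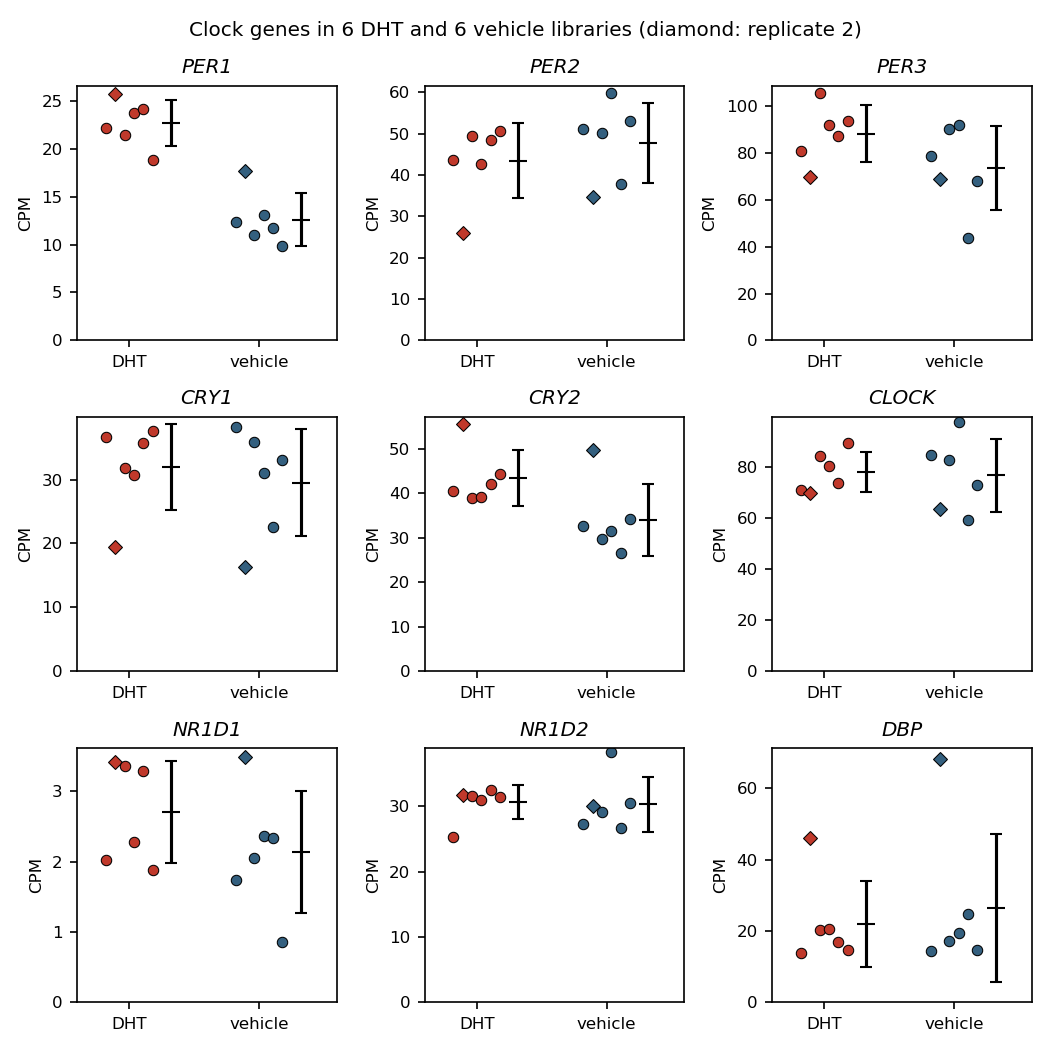
CPM of the 9 clock genes in each library, on linear axes that start at 0. DHT libraries are red and vehicle libraries blue, diamonds are replicate 2, and bars are mean ± SD (n = 6 each). PER1 lies between 18.9 and 25.7 CPM in DHT and between 9.83 and 17.6 CPM in vehicle libraries, while the other 8 genes overlap.

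PER2 and PER3, the other period genes, did not pass. PER2 had 25.97, 45.96 and 50.7 CPM (lowest, median, highest) in DHT libraries and 34.6, 50.6 and 59.8 CPM in vehicle libraries. In both groups the lowest value was that of replicate 2. The log2 fold change of PER2 was -0.14 (SE 0.17, 95% interval -0.51 to 0.24, adjusted p = 0.896), and it ran from -0.22 without vehicle replicate 2 to -0.023 without DHT replicate 2. PER3, the most abundant clock gene per length, had 69.9, 89.8 and 106 CPM in DHT libraries against 43.8, 73.8 and 92.0 CPM in vehicle libraries. Its groups overlapped, and vehicle replicate 5 was lowest. The log2 fold change of PER3 was 0.26 (SE 0.17, 95% interval -0.09 to 0.62, adjusted p = 0.651), and 0.15 without vehicle replicate 5. Exons of PER3 overlap those of UTS2 on the opposite strand by 868 bases, but UTS2 had 1 count over all 12 libraries.

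Because a call in one relative and none in another does not show a difference, ratios within each library were compared by an exact two-sided permutation test over all labelings, adjusted over 5 pairs. The mean log2 ratio of PER1 to PER2 was -0.90 ± 0.48 in DHT libraries and -1.88 ± 0.51 in vehicle libraries (SD), a difference of 0.98 (exact permutation p = 0.0108, adjusted p = 0.0379). PER1 thus shifted relative to PER2, although vehicle replicate 2, at -0.95, lay within the DHT range of -1.40 to -0.01. That difference was 0.99 without both replicate 2 libraries (exact permutation, adjusted p = 0.0198). Leaving out any of DHT replicates 2, 3 or 4 or vehicle replicates 1, 4 or 6 gave adjusted p between 0.0541 and 0.0649 by exact permutation. The ratio of PER1 to PER3 differed by 0.55 and missed the threshold (exact permutation p = 0.0346, adjusted p = 0.0577). It passed without DHT replicate 6, vehicle replicate 2, vehicle replicate 5 or both replicate 2 libraries, with adjusted p between 0.0379 and 0.0496 by exact permutation. For PER2 to PER3 the mean log2 ratio was -1.03 ± 0.22 in DHT libraries and -0.60 ± 0.29 in vehicle libraries, a difference of -0.43 (exact permutation p = 0.0152, adjusted p = 0.0379). PER2 was thus lower relative to PER3 after DHT, although neither passed alone. Without any of DHT replicates 2, 3 or 4 or vehicle replicates 1, 4 or 6 the adjusted p was between 0.0541 and 0.0649 by exact permutation.

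The cryptochromes CRY1 and CRY2 encode the other repressor proteins of the loop. CRY2 had 38.8, 41.2 and 55.6 CPM (lowest, median, highest) in DHT libraries, against 26.5, 32.1 and 49.7 CPM in vehicle libraries. Replicate 2 was the highest in both groups, and with all libraries the groups overlapped. The other 5 DHT libraries all lay above the other 5 vehicle libraries, which reached 34.2 CPM. The share of all genes separated in this way without replicate 2 was not computed. With all libraries and group as the only term CRY2 did not pass (log2 fold change 0.35, SE 0.15, 95% interval 0.02 to 0.68, adjusted p = 0.357 in edgeR). With the replicate number as a block its log2 fold change was 0.37 (adjusted p = 0.0276 in edgeR, where 4.67% of all genes were raised). Without vehicle replicate 2 its log2 fold change was 0.49 (adjusted p = 0.0350), without DHT replicate 2 it was 0.26 (adjusted p = 0.394), and without both replicate 2 libraries it was 0.41 (adjusted p = 0.0208, where 3.7% of all genes were raised). The authors' deposited table gives CRY2 a log2 fold change of 0.37 and an adjusted p of 0.236. CRY1 had 19.5, 33.8 and 37.5 CPM in DHT libraries and 16.3, 32.1 and 38.2 CPM in vehicle libraries, with replicate 2 lowest in both groups. The log2 fold change of CRY1 was 0.11 (SE 0.21, 95% interval -0.34 to 0.56, adjusted p = 0.930). The log2 ratio of CRY1 to CRY2 differed by -0.23 between the groups (exact permutation p = 0.468, adjusted p = 0.468). In replicate 2 that log2 ratio was -1.49 with DHT and -1.58 with vehicle, while the other libraries ran from -0.35 to -0.14 with DHT and from -0.23 to 0.26 with vehicle. The difference was -0.49 without vehicle replicate 2 (exact permutation, adjusted p = 0.0253), -0.018 without DHT replicate 2 (exact permutation, adjusted p = 0.991) and -0.29 without both replicate 2 libraries (exact permutation, adjusted p = 0.0265).

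**Figure D2:**
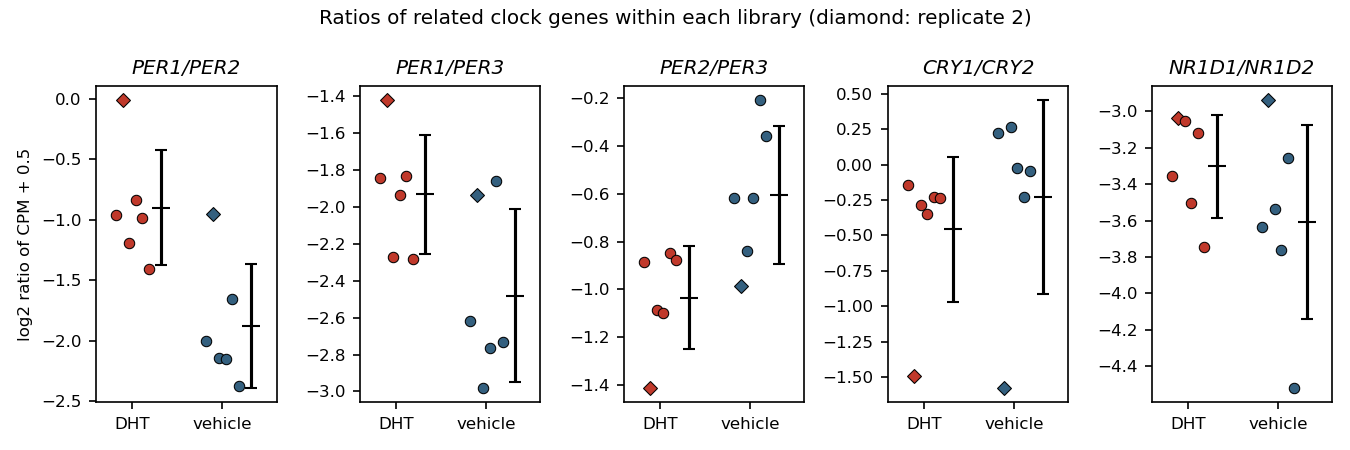
Log2 ratio of CPM + 0.5 for 5 pairs of related clock genes in each library, with DHT in red, vehicle in blue, diamonds for replicate 2, and bars for mean ± SD (n = 6 each). Each panel has its own axis. The ratio of PER1 to PER2 is 0.98 higher on average in DHT libraries, and the ratio of CRY1 to CRY2 sits near -1.5 in both replicate 2 libraries.

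CLOCK and the REV-ERB genes gave no call. CLOCK, the DNA-binding activator, had 70.0, 77.2 and 89.5 CPM (lowest, median, highest) in DHT libraries and 59.4, 78.02 and 97.9 CPM in vehicle libraries. All DHT values of CLOCK lay within the vehicle range, with a log2 fold change of 0.02 (SE 0.13, 95% interval -0.25 to 0.30, adjusted p = 0.982). NR1D2, which encodes REV-ERBβ, had 25.4, 31.5 and 32.5 CPM in DHT libraries and 26.7, 29.6 and 38.3 CPM in vehicle libraries. Its interval was among the narrowest of the 9, at -0.23 to 0.25 (log2 fold change 0.01, SE 0.11, adjusted p = 0.989). NR1D1, which encodes REV-ERBα, was scarce, with 250 counts over the DHT libraries and 173.5 over the vehicle libraries. Its levels were 1.89, 2.78 and 3.42 CPM in DHT libraries and 0.854, 2.19 and 3.48 CPM in vehicle libraries, the lowest resting on 4 counts. The log2 fold change of NR1D1 was 0.31, with an interval of -0.25 to 0.87 that spans a wide range at this depth (SE 0.26, adjusted p = 0.800). It was 0.19 without vehicle replicate 6 and 0.49 without vehicle replicate 2. NR1D1 shares 473 of its 2630 exon bases with THRA on the opposite strand, so reads there cannot be assigned without strand, and THRA averaged 15.3 ± 0.663 CPM in DHT and 14.7 ± 2.37 CPM in vehicle libraries. The log2 ratio of NR1D1 to NR1D2 differed by 0.31 (exact permutation p = 0.251, adjusted p = 0.314).

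DBP, a bZIP activator whose RNA follows CLOCK and BMAL1 in rhythmic tissues, varied most between libraries. Its levels were 13.9, 18.5 and 46.0 CPM (lowest, median, highest) in DHT libraries and 14.4, 18.4 and 68.1 CPM in vehicle libraries. The highest in each group was replicate 2, at 2.73 times the median of the other 5 libraries with DHT and 3.93 times with vehicle. The other libraries ran from 13.9 to 20.6 CPM with DHT and from 14.4 to 24.8 CPM with vehicle. DBP did not pass (log2 fold change -0.27, SE 0.41, 95% interval -1.14 to 0.61, adjusted p = 0.910). Its sign depended on vehicle replicate 2: without that library the log2 fold change was 0.28 (adjusted p = 0.732), and without both replicate 2 libraries it was -0.08 (SE 0.16, adjusted p = 0.831). DBP shares 661 of 6485 exon bases with SPHK2 on the opposite strand, and SPHK2 averaged 35.7 ± 4.40 CPM in DHT and 37.9 ± 6.16 CPM in vehicle libraries.

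DHT replicate 2 lay outside the range of the other 5 DHT libraries for 8 of the 9 clock genes, and vehicle replicate 2 outside that of the other 5 vehicle libraries for 6 of 9. Over all genes tested these shares were 76.1% and 64.6%, so the counts for the clock genes are near the background. DBP, PER1, CRY2 and NR1D1 were higher in both replicate 2 libraries than in the rest of their group, with 57.0% to 62.6% G and C in the authors' deposited table. PER2 and CRY1, at 53.2% and 42.7%, were lower in both. Across all genes the displacement also moved with GC content. In the GC-richest of 4 equal groups of genes the median log2 displacement was 0.40 for DHT replicate 2 and 0.63 for vehicle replicate 2. In the GC-poorest group these medians were -0.30 and -0.52. DBP was displaced by 1.42 and 1.94, CRY1 by -0.86 and -0.9994, and PER2 by -0.88 and -0.56. PER1, CRY2 and NR1D1 were displaced by 0.21 to 0.50 with DHT and by 0.57 to 0.65 with vehicle. PER2 was displaced in the opposite direction to the medians of its GC group, 0.17 and 0.27. In the GC-poorest group NR1D2, at 40.6% G and C, was displaced by 0.01 and 0.05, and CLOCK, at 38.4%, by -0.20 and -0.38. PER3, at 45.6%, was displaced by -0.40 and -0.19. The part of GC content in these values was not tested.

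**Figure D3:**
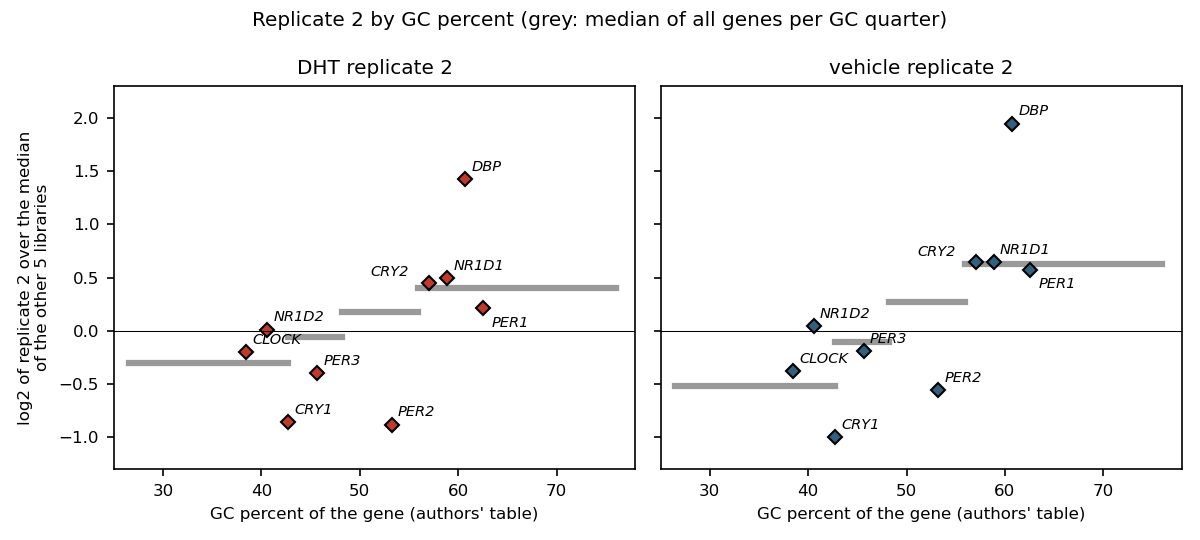
Log2 of replicate 2 over the median of the other 5 libraries of its group (CPM + 0.5) against the GC percent of each clock gene, for DHT on the left and vehicle on the right. Diamonds are the 9 clock genes and grey bars are medians of all genes in 4 equal groups by GC content. DBP lies highest in both panels, at 1.42 and 1.94, and CRY1 and PER2 lie lowest.

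Levels of different genes were compared as CPM per kb of exon. In DHT libraries PER3 stood first with 10.9 ± 1.49, followed by CRY2 (7.002 ± 1.02), CLOCK (6.79 ± 0.678), CRY1 (6.68 ± 1.40), PER2 (6.32 ± 1.33) and NR1D2 (5.28 ± 0.449). DBP (3.40 ± 1.86), PER1 (3.24 ± 0.344) and NR1D1 (1.030 ± 0.274 CPM per kb) came last. In vehicle libraries the order was PER3 (9.09 ± 2.19), PER2 (6.95 ± 1.40), CLOCK (6.67 ± 1.25), CRY1 (6.17 ± 1.76), CRY2 (5.50 ± 1.31), NR1D2 (5.24 ± 0.722), DBP (4.08 ± 3.20), PER1 (1.80 ± 0.388) and NR1D1 (0.813 ± 0.328 CPM per kb). Errors are SD with n = 6. The ranges of CRY2, CLOCK, CRY1, PER2 and NR1D2 overlapped their neighbours in both groups, so their order was not resolved. PER1 and NR1D1 were the only neighbours whose ranges did not overlap, in either treatment. DBP lay above PER1 in 2 of 6 DHT libraries and in 6 of 6 vehicle libraries.

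Among 42 other genes of the clock pathway, 39 were tested, 2 rose in edgeR (1.96% of all genes were raised), 0 fell and 37 did not pass. Their median log2 fold change was -0.01, against 0.11 for the 9 clock genes and -0.05 for all genes tested. At an unadjusted p under 0.05 edgeR gave 4 higher and 2 lower, beside 6.59% and 5.41% of all genes. For the 0 lowered, DESeq2 gave 1 and limma-voom gave 0. RORB, FBXL21P and USP2 were too low to test. Without both replicate 2 libraries 4 rose, with RORA and SIAH2 added, and 1 fell, TBL1XR1, where 3.7% of all genes rose and 1.9% fell.

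In the kinase list 1 of 10 tested genes rose (median log2 fold change -0.02), beside 1.96% of all genes tested. PRKAA2, the catalytic α2 subunit of the AMP-activated kinase, which in mice marks cryptochrome for breakdown, had 35.2, 42.2 and 51.4 CPM (lowest, median, highest) in DHT libraries against 18.2, 24.9 and 33.9 CPM in vehicle libraries. Its groups did not overlap (SE 0.16 on a log2 fold change of 0.76, adjusted p = 0.0220). Without any of DHT replicates 1, 3, 4 or 6 or vehicle replicate 6 the adjusted p of PRKAA2 was between 0.0525 and 0.0629, and with library totals as the only scaling it was 0.0778. Its relative PRKAA1 in the same list did not rise (log2 fold change -0.23, adjusted p = 0.713 in edgeR). Of 6 tested ubiquitin ligase and deubiquitinase genes 1 rose (median log2 fold change 0.15), beside the same 1.96%. FBXW11, the β-TrCP2 ligase subunit that recognises phosphorylated period proteins, had 97.5, 99.0 and 109 CPM in DHT libraries against 63.4, 73.3 and 80.3 CPM in vehicle libraries. DHT libraries again lay wholly above vehicle libraries (adjusted p = 0.0148, log2 fold change 0.44, SE 0.09), and FBXW11 passed with each library left out. Over all genes tested, 2.28% had DHT libraries wholly above vehicle libraries. FBXW11 did not pass in every setting. It missed with library totals as the only scaling (adjusted p = 0.0733) and with no filter (adjusted p = 0.0913). BTRC, a relative of FBXW11 in the same list, did not rise (log2 fold change -0.15, adjusted p = 0.738 in edgeR). The ratios of PRKAA2 to PRKAA1 and of FBXW11 to BTRC were not tested, so a difference between these relatives is not shown.

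The other lists gave no call in edgeR with all libraries and group as the only term. Of 5 tested BMAL, NPAS2 and ROR genes (median log2 fold change -0.18), RORA, the activating receptor at REV-ERB sites, had the smallest p. It had 12.5, 21.4 and 25.6 CPM in DHT libraries and 7.56, 14.6 and 18.3 CPM in vehicle libraries (log2 fold change 0.62, SE 0.22, adjusted p = 0.202, or 0.0281 without both replicate 2 libraries). BMAL1, the partner of CLOCK, named for its role, averaged 17.3 ± 2.63 CPM in DHT and 18.4 ± 3.24 CPM in vehicle libraries (log2 fold change -0.08, adjusted p = 0.926). Of 8 output and repressor factors (median 0.04), CIART, a repressor of CLOCK and BMAL1, had the smallest p, with 3.04, 5.17 and 9.34 CPM in DHT and 2.52, 3.65 and 5.56 CPM in vehicle libraries (log2 fold change 0.66, SE 0.29, adjusted p = 0.365). Of 10 corepressors and cofactors (median -0.03), it was TBL1XR1, a subunit of the corepressor complex that REV-ERB receptors recruit. TBL1XR1 averaged 256 ± 16.3 CPM in DHT and 341 ± 44.9 CPM in vehicle libraries (log2 fold change -0.41, SE 0.11, adjusted p = 0.0737). It passed in DESeq2 (adjusted p = 0.00296) and without both replicate 2 libraries (log2 fold change -0.48, adjusted p = 0.00629). In these 3 lists 0 genes were raised or lowered, 2 were higher and 2 lower at an unadjusted p under 0.05 (6.59% and 5.41% over all genes), and limma-voom gave 0.

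**Figure D4:**
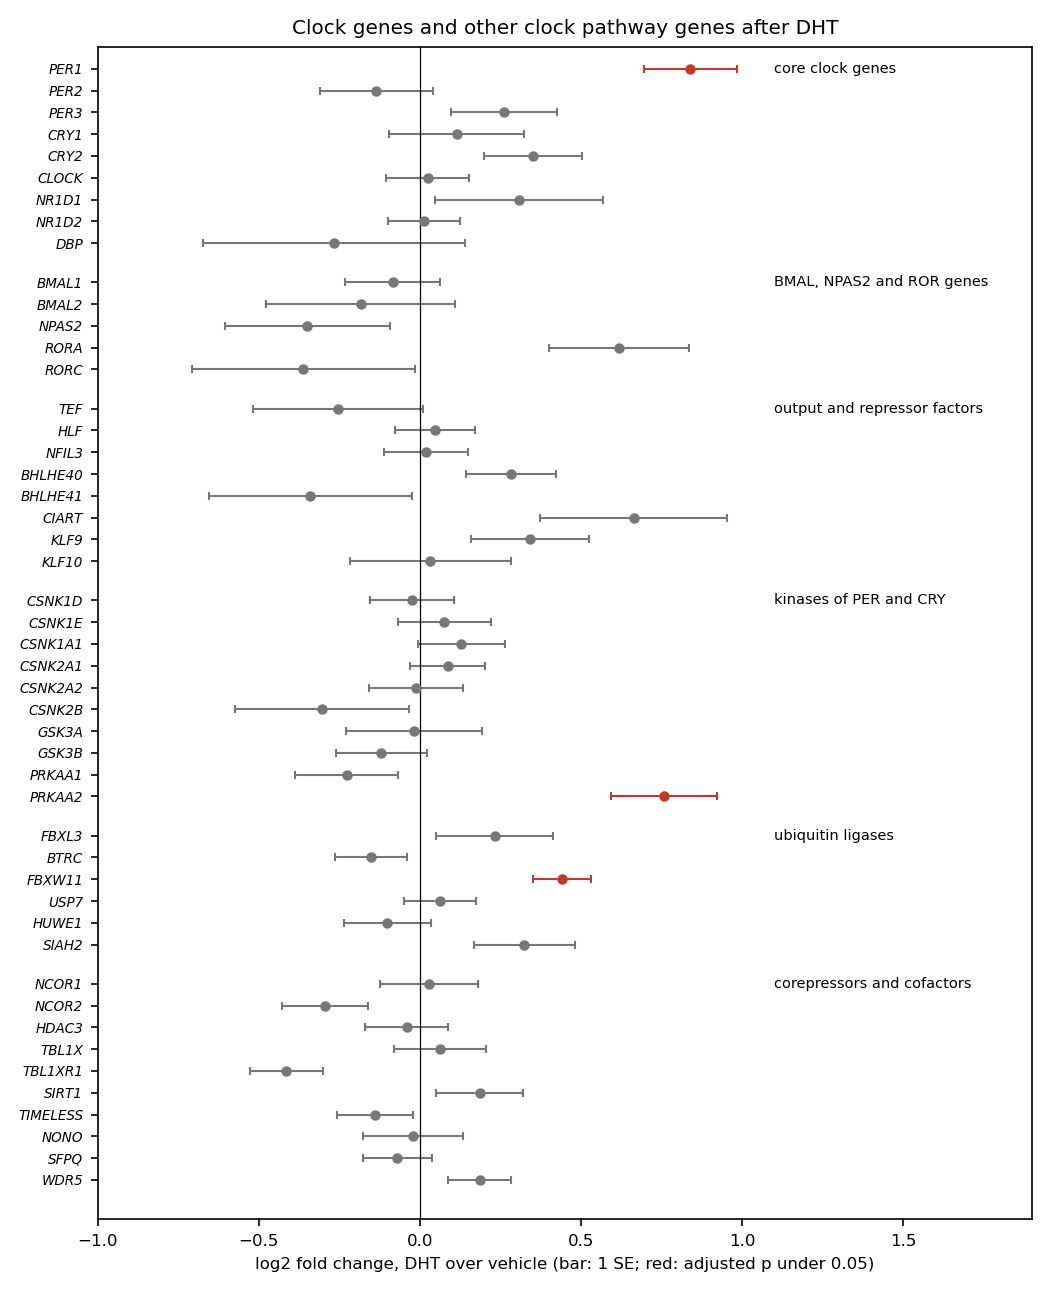
Log2 fold change, DHT over vehicle, of the 9 clock genes and 39 other clock pathway genes, by list, from edgeR with 6 libraries per group. Bars are 1 SE and red marks an adjusted p under 0.05. PER1, PRKAA2 and FBXW11 are the red points, at 0.84, 0.76 and 0.44.

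As a description, genes among the 5 most like PER1 in log2 CPM over the 12 libraries, among 10223 genes with a mean of at least 10 CPM, were PEX5 (Pearson r = 0.963), KDM4B (0.960), PRAG1 (0.953) and PREP (0.949). Over the 10 libraries other than replicate 2 their r with PER1 was 0.944 to 0.962. For DBP the 5 were CYB5R3 (0.991), MAPK3 (0.991), TECR (0.990), UCP2 (0.989) and the pseudogene TUBBP1 (0.989), whose reads may belong to its parent gene. Without replicate 2 their r with DBP was 0.919 to 0.953. No clock gene was in either list, and the libraries compared share the 2 treatments and the same displaced replicate. The 4 named PER1-like genes rose after DHT (log2 fold changes of 0.56 to 1.28), while the 5 DBP-like genes had values of -0.28 to -0.11 and did not pass. Both lists were picked over these same 12 libraries, so this contrast was largely set by the choice and is no separate result.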

How the data were processed

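Estimated counts per gene were deposited by the authors as 1 table, from single 40 bp reads; the submitters' processing notes name STAR, featureCounts and GRCh38. Tool versions, options and the strand setting were not given in the sources used here. Between 39.6% and 46.7% of nonzero values per library were not whole (tolerance 0.005), so they were taken as estimated counts and rounded, although raw counts had been planned for. A record of 1 gene broken over 3 lines was left out. The authors also deposited a comparison table with log2 fold changes, p-values and GC percent, per the file headers, covering 89.0% of the genes tested.

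The quasi-likelihood test of edgeR 4.0.16 (R 4.3.3) was run with group as the only term on the 16355 genes kept by filterByExpr, with TMM scaling and an adjusted p threshold of 0.05. Standard errors came from the fold change and the root of its F statistic. CPM used TMM-scaled totals. Ratios used a pseudocount of 0.5 CPM. DESeq2 1.42.0, limma-voom (limma 3.58.1), other scalings and filters, left-out libraries and a replicate block were tried. The code was tested on simulated counts.

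The 9 genes, the lists and the tests were chosen with earlier results of these data known. All 9 are named, with each list's called genes or its smallest p, and the 5 genes most correlated with PER1 and with DBP, of which 1 is not reported here. BMAL1, SIAH2, PRKAA1 and BTRC were named after their values were seen. Leaving out both replicate 2 libraries with the block was added after seeing the data.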

Additional observations from a re-analysis of the deposited data

Results flagged for a closer look

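A library was set apart where its gap to the nearest other library exceeded 0.625 of its group's range, which chance alone gives in about 1 of 20 groups, and 7 of 18 groups of clock gene values had such a library. Of these, 5 were replicate 2 libraries. DBP stood highest there, at 45.96 CPM in DHT replicate 2 and 68.1 CPM in vehicle replicate 2, with the next libraries at 20.6 and 24.8 CPM. CRY2 stood highest at 55.6 CPM in DHT replicate 2 and 49.7 CPM in vehicle replicate 2, and PER2 lowest at 25.97 CPM in DHT replicate 2. NR1D2 was lowest in DHT replicate 1, at 25.4 CPM against 31.0 CPM for the next library, and highest in vehicle replicate 4, at 38.3 CPM against 30.5 CPM. The 18 groups come from the same 12 libraries and are not independent. The share over all genes was not computed for this rule, so no excess in clock genes can be read from it.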

How the results depend on the processing

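The direction and call of PER1, PER2, PER3 and NR1D1 were the same in 24 other settings each. With the replicate number as a block, 764 genes were raised and 522 lowered, 2 clock genes were raised (CRY2 at 0.37, adjusted p = 0.0276), beside 4.67% of all genes, and 4 other clock pathway genes were raised, among them RORA (0.64, adjusted p = 0.00519), and 1 lowered (TBL1XR1, -0.41, adjusted p = 0.0230). With the block, the log2 ratio of PER1 to PER2 differed by 0.98, PER1 to PER3 by 0.55 and PER2 to PER3 by -0.43. By exact sign flips each had an adjusted p of 0.0521. Each had the smallest unadjusted p that sign flips allow, 0.0313, since every same-numbered pair of libraries differed in the same direction. After adjustment over 5 ratios these could pass only if another ratio had also reached that smallest p. Numbers were not taken as pairs in the main fit, and the labels do not say that a number is shared between treatments. Same-numbered libraries deviated together for 5 numbers (r of 0.26 to 0.87) but not for replicate 5 (r = -0.24). Of the 6 DHT libraries 3 correlated best with their own number. The fit with group as the only term keeps any such shared deviation in its error. With the block the SE was 0.086 against 0.15 for CRY2, and 0.13 against 0.41 for DBP.

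DESeq2 raised 510 and lowered 283 genes and lowered 1 other clock pathway gene. Library totals alone lowered 93 genes, no filter lowered 90, and an adjusted p under 0.01 raised 137 and lowered 58. The other clock pathway genes raised were 0, 1 and 0 in these 3 settings. Without both replicate 2 libraries 608 genes were raised and 312 lowered, 2 clock genes were raised (CRY2 at 0.41), 4 other clock pathway genes were raised and 1 lowered, and the log2 ratios of PER1 to PER3 (0.56) and CRY1 to CRY2 (-0.29) passed. With the block as well, the counts were 535 and 253, 2 clock genes (CRY2 at 0.41), and 4 and 1. With single libraries left out, 189 to 434 genes were raised and 86 to 199 lowered, 1 to 2 clock genes were raised, and 1 to 2 other clock pathway genes were raised and 0 to 1 lowered. The log2 fold change then ran from -0.015 to 0.22 for CRY1, 0.26 to 0.49 for CRY2, -0.22 to -0.023 for PER2, 0.15 to 0.34 for PER3, 0.19 to 0.49 for NR1D1, -0.041 to 0.11 for CLOCK, -0.022 to 0.094 for NR1D2 and -0.63 to 0.28 for DBP. Upper quartile scaling put NR1D2 at -0.00044. Ratio differences ran from 0.80 to 1.16 (PER1 to PER2), 0.45 to 0.67 (PER1 to PER3), -0.51 to -0.35 (PER2 to PER3) and -0.49 to -0.018 (CRY1 to CRY2). The cause was not tested for any of these. NR1D1, at 4 to 75 counts per library, is the gene most limited by depth.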
